A study of Homo sapiens with 3 samples.

Results

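The genes described here are 48 protein-coding genes of the long arm of human chromosome 21, from LIPI near the centromere to ATP5O in band 21q22.1. They were chosen by name and position from a genome-wide knockout screen, with earlier results of the screen known, after guides against this chromosome had been seen at higher abundance in the drug-treated culture. The values in RTX over DMSO, which led to this choice, are given as a description, and the counts by any call rule in that comparison support nothing. All 48 genes were found among the 20472 targeted genes, each with 3 guides, which makes 144 of 62916 guides.

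The screen used NUGC3, a human cell line established from gastric cancer, carrying a pooled GeCKO library. A guide RNA brings the nuclease Cas9 to its target gene, which is then often disrupted, and the reads of a guide in genomic DNA follow the number of cells that carry it. The 3 libraries, 1 for each condition, came from a day 0 sample named for DMSO, a solvent, from a DMSO culture of day 14 and from a culture of day 14 with RTX at 10 nM. RTX is not spelled out in the labels, and the series title concerns antifolate drugs. The sample titles set the groups, because a treatment note gives the day 0 cells 14 days of DMSO. Each condition was 1 library, so differences have no replicate check, no p-value is given and each statement concerns these libraries.

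The long arm of chromosome 21 holds genes of unrelated function side by side. Those of its proximal part include the amyloid precursor gene APP, the superoxide dismutase gene SOD1, a cluster of 4 cytokine receptor genes, and genes that most dividing cells need, such as DONSON for DNA replication and SON for splicing. Further toward the telomere lies SLC19A1, the gene of the reduced folate carrier, through which antifolates enter cells. The deposited tables name guides by number, so no guide sequence is shown.

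Depth was similar in the 3 libraries, with totals of 16547572 (day 0), 18805737 (DMSO) and 17344507 (RTX) reads and medians of 230 to 251 reads per guide. Intervals from these reads cover counting error only. Log2 ratios of guides were taken with a pseudocount of 5, and each gene was scored by the median of its guides. Of the 144 guides, 142 had the 10 normalized reads at day 0 that the filter asked for. The 2 left out were a USP25 guide, with 9, 66 and 53 reads at day 0, after DMSO and after RTX, and an ATP5O guide, with 9, 9 and 17. All 48 genes kept at least 2 guides and so a score. A gene is called higher at a score of 0.5 or above and lower at -0.5 or below, which are thresholds of size and no test.

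Guides against the 48 genes took a larger share of the RTX library than of the others. They made up 0.23% of reads at day 0 (95% exact binomial interval 0.228% to 0.232%), 0.211% in DMSO (0.209% to 0.213%) and 0.353% in RTX (0.35% to 0.356%). The share in RTX was thus 1.68 times that in DMSO and 1.54 times that at day 0. Relative to library totals, the summed guides of 43 of the 48 genes were highest in the RTX library, and those of 1, the interferon receptor gene IFNAR2, were lowest there. The share over all genes was not computed for this count, which describes the library that led to the choice of the genes.

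Of the 48 genes, 45 had a score above 0 in RTX over DMSO, against 49.7% of all genes. The median score there was 0.77, a 1.71-fold higher abundance, where the median of all 20150 scored genes was -0.00248. Of the 48 genes, 33 were higher (68.8%), against 13.0% of all scored genes, and 1 was lower, against 9.77%. At a score of 1 the counts were 18 of 48 and, over all genes, 2.75%. These shares describe the contrast by which the genes were chosen. The 25th and 75th percentiles of the 48 scores were 0.43 and 1.19.

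Most guides of the group lay above 0. Of 142 guides, 119 had a log2 ratio above 0 in RTX over DMSO (83.8%, against 50.1% of all gene-targeting guides), and 60 were at 1 or above (42.3%, against 7.95%). Among the 46 genes with 3 guides past the filter, all 3 guides were above 0 for 28, or 60.9%, against 14.1% of all such genes. The quartiles of the guides were 0.36 and 1.26, those of 60918 guides against genes placed elsewhere or unplaced were -0.39 and 0.41, and those of 991 non-targeting guides were -0.46 and 0.25. The quartiles of the group were thus both displaced, while its interquartile range of 0.90 was near the 0.79 of the guides off the chromosome. By the FDR of the authors' deposited table, 89 of the 144 guides were higher in RTX over DMSO, against 14.0% of all guides. With edgeR's exact test as another call rule, with the spread of non-targeting guides as its dispersion and Benjamini-Hochberg adjustment, 5 of the 142 passed 0.05, against 0.915%. That rule sets 1 library against another, takes guides as its units and uses the contrast by which the genes were chosen, so it is no test of the group.

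**Figure D1:**
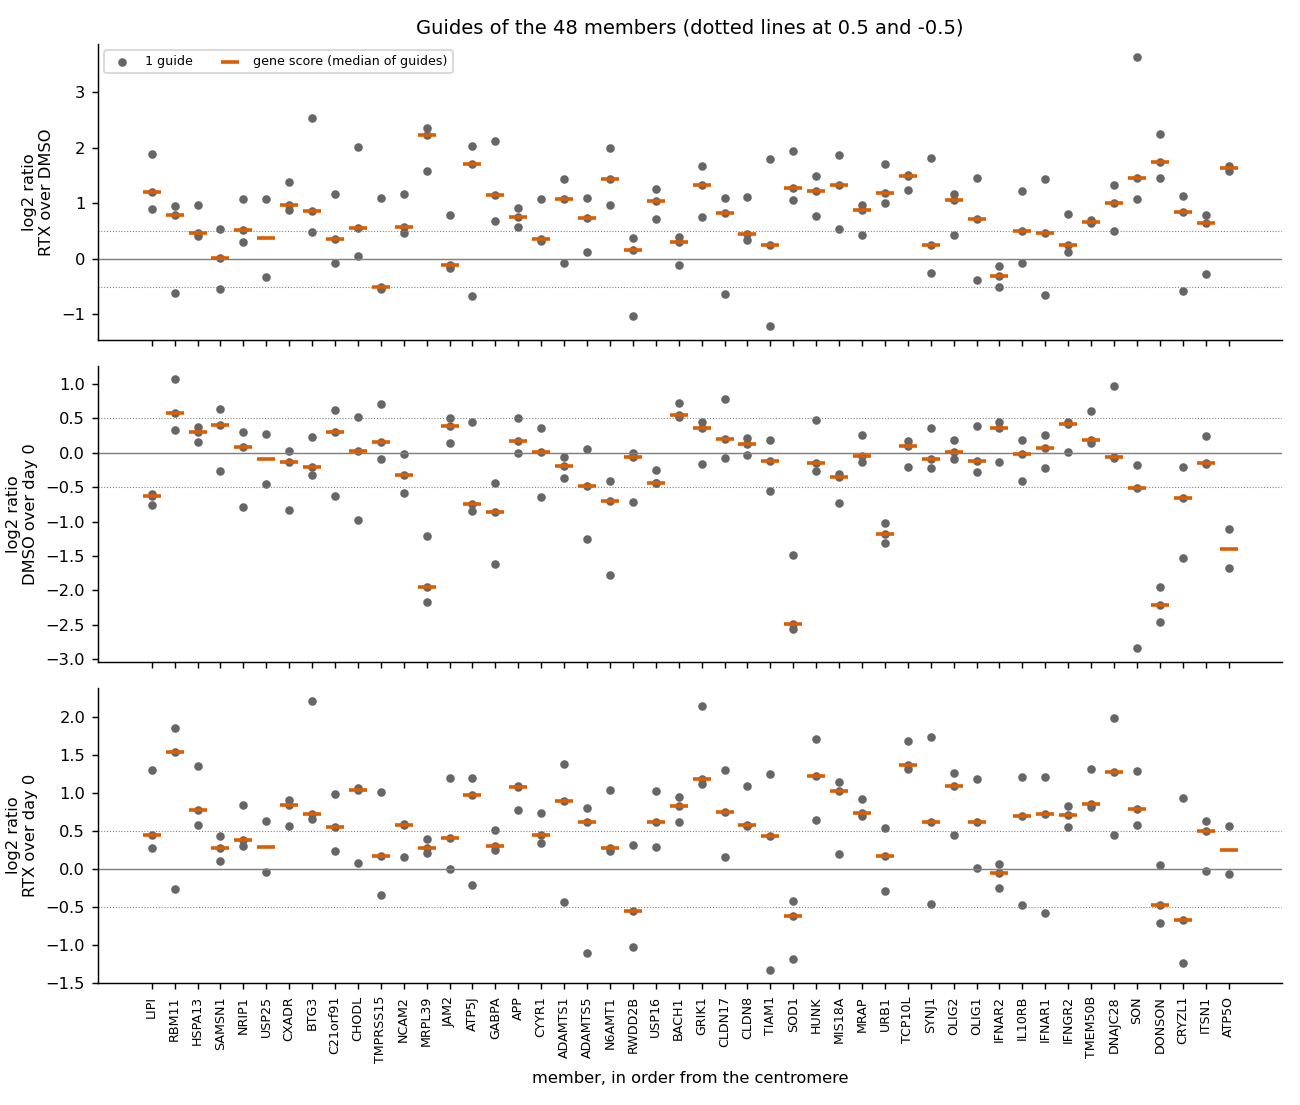
Log2 ratios of the 142 guides (grey points) and gene scores (orange bars) of the 48 genes, in order from the centromere, for RTX over DMSO, DMSO over day 0 and RTX over day 0. Most scores lie above 0 in both comparisons that involve RTX, with 45 and 43 of 48 genes there, whereas 20 of 48 lie above 0 in DMSO over day 0.

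RTX over day 0 leaves the DMSO day 14 library out but shares the RTX library, whose values led to the choice of the genes. Its counts are thus a description and no separate support. There the median score was 0.62, a 1.53-fold higher abundance, and 43 of 48 genes were above 0, against 49.6% of all genes. Of the 48 genes, 30 were higher, against 6.75%, and 3 were lower, against 8.99%. At a score of 1 the count was 9, against 0.620%. Of the guides, 38 were at 1 or above, against 3.18%, 74 passed the FDR of the authors' deposited table, against 11%, and 2 passed edgeR's exact test, against 0.180%. In DMSO over day 0 the median was -0.08, with 2 genes higher (background 5.67%) and 11 lower (22.9%, background 11.8%), of which 5 were at -1 or below (background 3.42%). Scores above 0 were found for 20 genes, against 49.9%. Of the guides, 19 were at -1 or below, against 7.61%, 16 passed the FDR of the authors' deposited table in that direction, against 5.92%, and 8 passed edgeR's exact test, against 2.07%.

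The same displacement was seen in the median of the rest of chromosome 21 and not in the medians of other chromosomes. The 6 targets on the centromere side of LIPI were an exception, with medians of 0.0010 in RTX over DMSO and 0.09 in RTX over day 0. The median RTX over DMSO score of the 231 scored genes of chromosome 21 was 0.73, and that of the 182 that are neither among the 48 nor SLC19A1 was 0.71. The medians of the other 21 autosomes and the X chromosome ran from -0.11, on chromosome 18, to 0.07, on chromosome 1. In RTX over day 0 the median of chromosome 21 was 0.69 and the others ran from -0.12 to 0.07. In DMSO over day 0 chromosome 21 stood at 0.03, within the range of -0.04 to 0.07 of the other chromosomes.

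**Figure D2:**
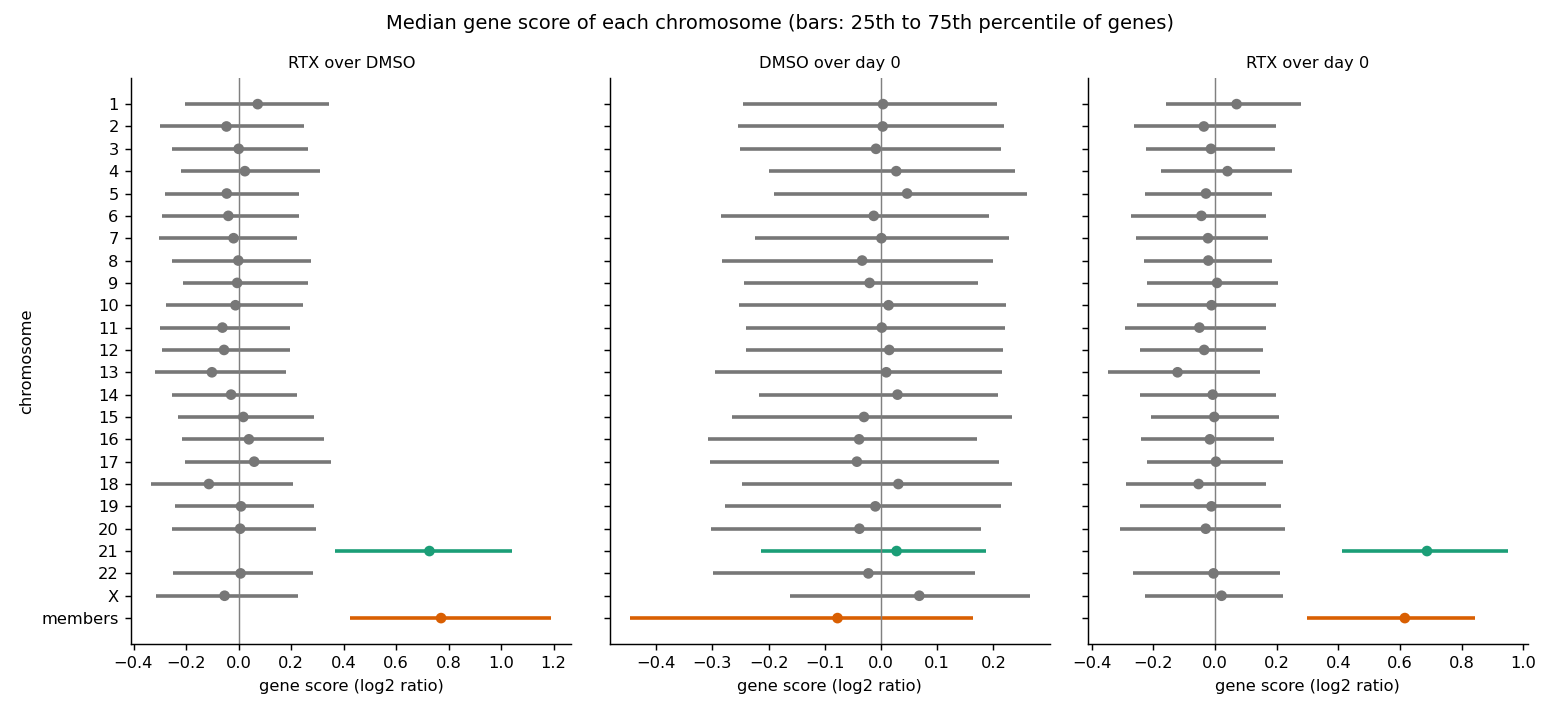
Median gene score of each chromosome (points) with the 25th to 75th percentile of its genes (bars), in each comparison, with the 48 genes as the last row. Chromosome 21 (green) and the 48 genes (orange) lie at 0.73 and 0.77 in RTX over DMSO and at 0.03 and -0.08 in DMSO over day 0.

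Along the arm the scores showed no steady slope toward SLC19A1. The 16 genes nearest the centromere, LIPI to GABPA, showed a median of 0.56 in RTX over DMSO, the next 16, APP to MRAP, one of 0.85, and the last 16, URB1 to ATP5O, one of 0.79. In RTX over day 0 these medians were 0.50, 0.68 and 0.66. Without the 11 genes that were lower in DMSO over day 0, the RTX over DMSO medians were 0.49, 0.79 and 0.64. The middle group stood highest under every alternative run, and the centromere-side group lowest in all but the mean over guides, where the medians were 0.69, 0.75 and 0.64.

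Genes between ATP5O and SLC19A1, 114 in all, showed a median of 0.71 in RTX over DMSO and 0.74 in RTX over day 0. The 13 genes on the telomere side of SLC19A1 had medians of 0.68 in both. SLC19A1 itself stood at 5.27, far above every one of the 48 genes, whose highest score was 2.23. At the ends of the group LIPI stood at 1.20 and ATP5O at 1.63 in RTX over DMSO, and at 0.45 and 0.25 in RTX over day 0. Just outside it, hsa-mir-8069 stood at -0.18 on the centromere side in RTX over DMSO, with guides from -0.95 to 1.24. Farther out on that side POTED, hsa-mir-3156-3 and hsa-mir-3648 stood at 0.98, 0.90 and 0.19, and TPTE and BAGE2 at -0.45 and -0.47. On the telomere side SLC5A3 stood at 0.56 and MRPS6, a mitochondrial ribosome gene, at 0.64. A running median over 9 neighbouring genes stayed between 0.46 and 1.27 in RTX over DMSO from LIPI to ATP5O, and between 0.28 and 1.01 in RTX over day 0.

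**Figure D3:**
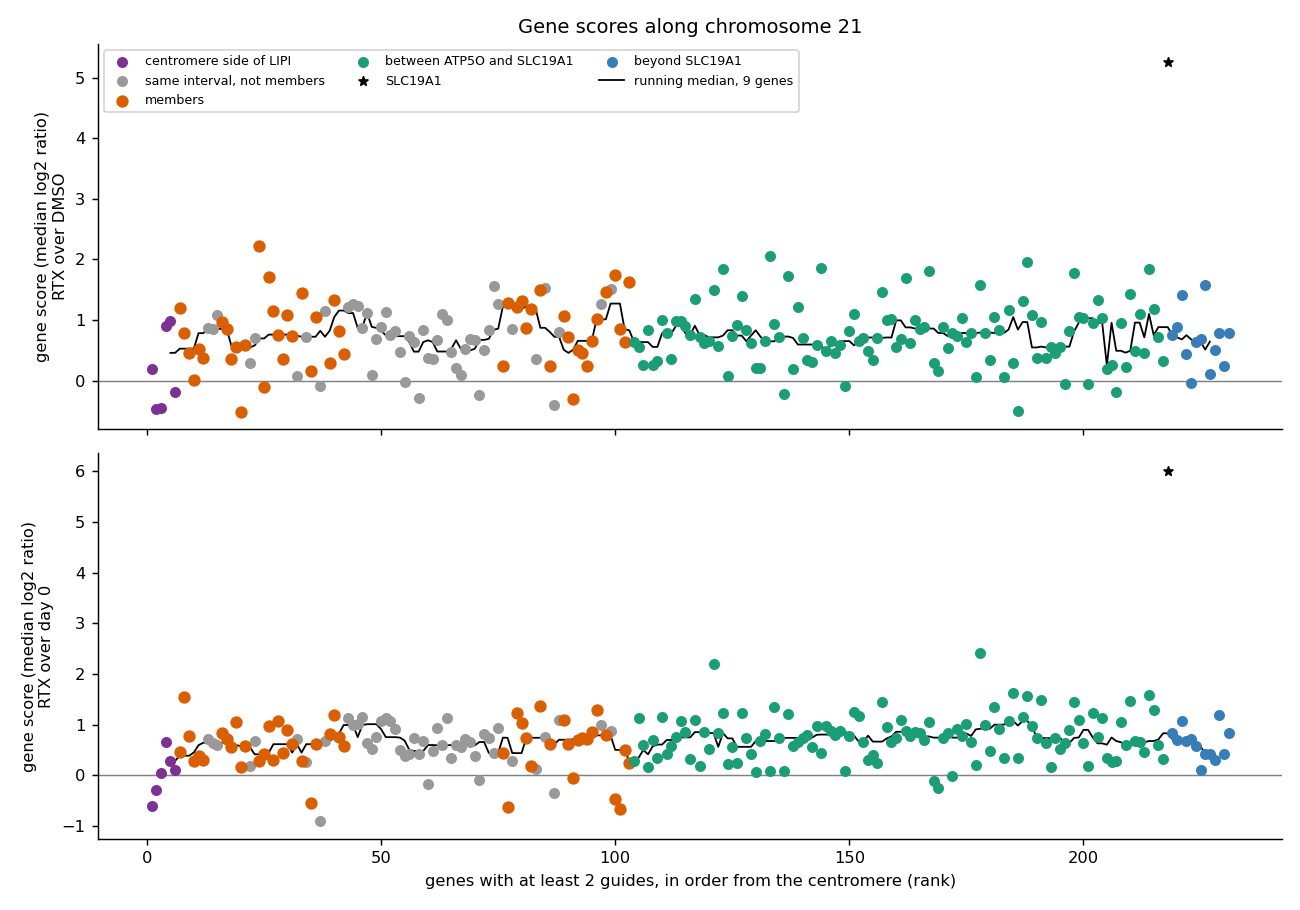
Gene scores along chromosome 21 in order of position toward the telomere, for RTX over DMSO (top) and RTX over day 0 (bottom), with a running median over 9 genes (line). The 48 genes (orange), their neighbours (grey) and the genes up to and beyond SLC19A1 (green, blue) share a level near 0.7, and SLC19A1 (star) stands at 5.27 and 6.01. As a set, the 6 targets on the centromere side of LIPI (purple) do not share it, with medians of 0.0010 and 0.09. Among them POTED and hsa-mir-3156-3 stand at 0.98 and 0.90 in RTX over DMSO, and TPTE and BAGE2 at -0.45 and -0.47.

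The other targets within the same interval stood at a similar level as a set. They number 49 and showed a median of 0.73 in RTX over DMSO and 0.67 in RTX over day 0. Of them, 33 and 34 were higher (67.3% and 69.4%), beside 13.0% and 6.75% of all genes. Of the 49, 32 are keratin-associated protein genes, which encode hair proteins. Their medians were 0.71 and 0.67, and DMSO over day 0 was at 0.04. These genes have close relatives, so single values of this family are uncertain. The 9 other protein genes among the 49 had medians of 0.81 in RTX over DMSO and 0.29 in RTX over day 0. In DMSO over day 0 their median was -0.23.

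The interval also holds targeted microRNA genes, which make short RNAs that repress messenger RNAs. Among 8 of them the medians were 0.78 in RTX over DMSO, 0.02 in DMSO over day 0 and 0.69 in RTX over day 0. The mature 5p forms of 4 of these genes, which lie on the plus strand of chromosome 21, are shown with the seed (bases 2 to 8) in capitals. They are from RefSeq with the build GRCh38.p14, and a mature form need not be particular to 1 gene. The 4 seeds differ from one another.
hsa-miR-99a-5p: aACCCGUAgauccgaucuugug
hsa-let-7c-5p: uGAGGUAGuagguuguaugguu
hsa-miR-125b-5p: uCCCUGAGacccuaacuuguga
hsa-miR-155-5p: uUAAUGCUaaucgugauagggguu

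The hsa-mir-99a guides had 220, 320, 263 and 246 reads at day 0, 220, 328, 309 and 206 after DMSO and 530, 370, 521 and 340 after RTX. All 4 were highest in RTX, and the gene score in RTX over DMSO was 0.86. The hsa-mir-155 guides had 276, 308, 123 and 119 reads at day 0, 373, 278, 183 and 115 after DMSO and 558, 407, 180 and 217 after RTX, which gave 0.70. For hsa-let-7c, a microRNA of the let-7 family, the score was 0.85, and for hsa-mir-125b-2 it was 1.09. The guides of hsa-mir-125b-2 disagreed, since 1 had 157, 186 and 131 reads and was lowest in RTX.

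Among the 48 genes, those of 3 mitochondrial proteins had the highest median of any role in RTX over DMSO, 1.71. MRPL39, a protein of the large mitochondrial ribosomal subunit, stood first at 2.23. Its guides counted 418, 747 and 299 reads at day 0, 100, 211 and 142 after DMSO and 486, 913 and 398 after RTX. All 3 guides were lowest in DMSO and highest in RTX. The scores were -1.96 in DMSO over day 0 and 0.28 in RTX over day 0. RTX over DMSO and DMSO over day 0 share the DMSO library, so the high first value and the low second value are not separate observations.

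ATP5J, coupling factor 6 of the ATP synthase, had 196, 311 and 118 reads at day 0, 129, 190 and 182 after DMSO and 394, 724 and 102 after RTX. Its first 2 guides were highest in RTX and the third was lowest there, and the score in RTX over DMSO was 1.71. ATP5O, the subunit that ties the catalytic head of the ATP synthase to its stalk, had 147 and 261 reads at day 0 in the 2 guides kept, 73 and 88 after DMSO and 221 and 250 after RTX. It scored 1.63 in RTX over DMSO and 0.25 in RTX over day 0. The 15 ATP synthase genes on other chromosomes, counting the inhibitor gene ATPIF1 and ATP5S, showed a median of 0.07 in RTX over DMSO, from ATPIF1 at -0.89 to ATP5F1 at 1.43, and of -0.22 in RTX over day 0. In DMSO over day 0, 6 of these 15 were lower. ATP5J and ATP5O stood at 0.98 and 0.25 in RTX over day 0, each above the highest of the 15, ATP5G1 at 0.20. Their guides differed in sign there, with the third ATP5J guide at -0.21 and the 2 kept ATP5O guides at 0.56 and -0.07.

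Genes of replication, centromeres, splicing and ribosome assembly were all 5 higher in RTX over DMSO, beside 13.0% of all genes and 68.0% of chromosome 21 genes. Differences between roles were not tested, and the counts of each role below stand beside these same shares. DONSON, a factor of DNA replication, had 144, 246 and 176 reads at day 0, 25, 55 and 47 after DMSO and 87, 257 and 126 after RTX. Its RTX reads lay between those of the other libraries for 2 guides and just above day 0 for the other. The scores were 1.74 in RTX over DMSO, -2.22 in DMSO over day 0 and -0.47 in RTX over day 0. URB1, a nucleolar factor of large ribosomal subunit assembly, had 307, 193 and 322 reads at day 0, 149, 84 and 174 after DMSO and 452, 158 and 366 after RTX, with a score of 1.19 in RTX over DMSO.

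SON, which aids the splicing of weak introns, had 29, 185 and 229 reads at day 0, 0, 182 and 177 after DMSO and 54, 462 and 346 after RTX. It scored 1.46 in RTX over DMSO, with a highest guide of 3.63 that rests on a guide at 0 reads in DMSO and depends on the pseudocount. MIS18A, which helps load the centromeric histone CENPA, scored 1.32 in RTX over DMSO and 1.03 in RTX over day 0. RBM11, a tissue-restricted splicing regulator, was the lowest of these 5 genes at 0.78 but the highest of all 48 in RTX over day 0, at 1.54. Its guides disagreed, with 684, 111 and 74 reads at day 0, 964, 188 and 179 after DMSO and 572, 335 and 283 after RTX.

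SOD1, the cytosolic superoxide dismutase, had the lowest score of the 48 in DMSO over day 0. Its guides counted 262, 209 and 259 reads at day 0, 48, 35 and 100 after DMSO and 113, 135 and 194 after RTX. All 3 guides were lowest in DMSO and stayed below day 0 in RTX, which gave scores of -2.48 in DMSO over day 0, -0.62 in RTX over day 0 and 1.29 in RTX over DMSO. Among 9 other genes of superoxide and peroxide removal, the scores in DMSO over day 0 ran from PRDX1 at -2.59 to CCS, the copper chaperone of SOD1, at 1.27. In RTX over DMSO they ran from CCS at -1.06 to SOD2, the mitochondrial dismutase, at 1.38, with a median of -0.02.

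The 11 genes lower in DMSO over day 0 were SOD1, DONSON, MRPL39, ATP5O, URB1, GABPA, ATP5J, N6AMT1, CRYZL1, LIPI and SON. All 11 were higher in RTX over DMSO, which shares the DMSO library, with a median of 1.44 against 0.58 for the other 37 genes. The order was the opposite in RTX over day 0, with a median of 0.28 for the 11 and 0.71 for the 37. That comparison shares the day 0 library with the one that set the split, so this order is not a separate observation either. The same split of genes off chromosome 21 gave medians in RTX over DMSO of 0.47 for the 2349 lower in DMSO over day 0, of which 47.6% were higher, and of -0.05 for the other 17570. Their medians in RTX over day 0 were -0.23 and 0.014. A gap between genes low in DMSO and the rest was thus also present outside the chromosome. Of the 37, 35 were above 0 in RTX over day 0, beside 49.6% of all genes. The exceptions were RWDD2B at -0.55 and IFNAR2 at -0.05. For the 17570 genes off the chromosome that share was not computed.

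**Figure D4:**
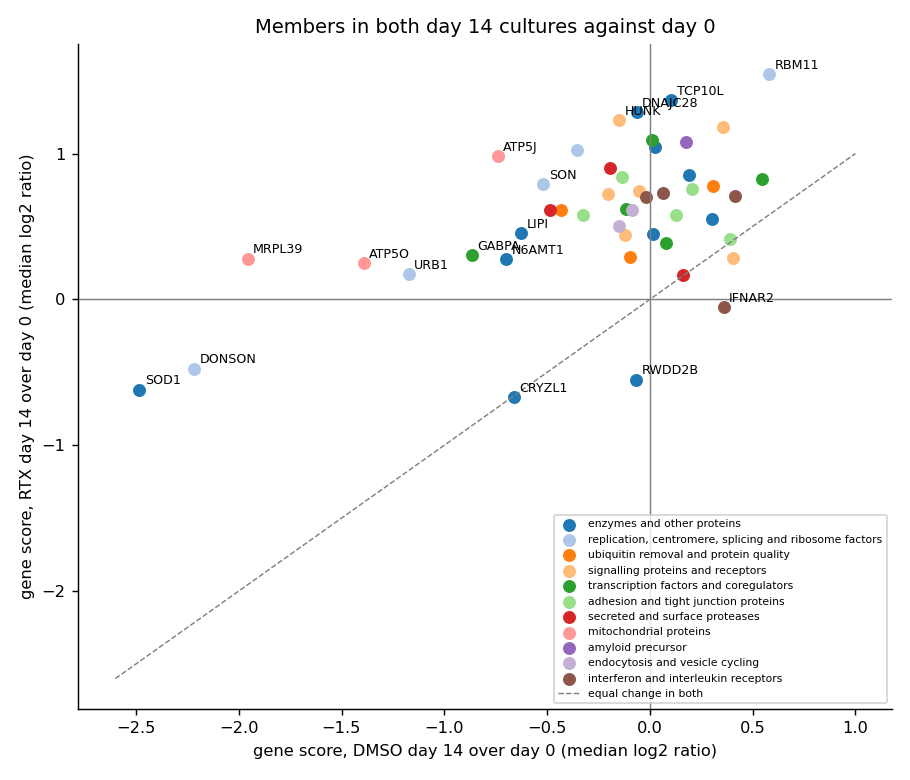
Gene scores of the 48 genes in DMSO over day 0 (horizontal) and RTX over day 0 (vertical), coloured by role, with a dashed line of equal change. The day 0 library is in both axes. Genes lower in DMSO, such as SOD1 at -2.48 and DONSON at -2.22, stood at -0.62 and -0.47 in RTX over day 0.

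Of 5 transcription factor and coregulator genes, 4 were higher in RTX over DMSO, beside 13.0% of all genes and 68.0% of the chromosome. GABPA, an ETS-family factor that serves many nuclear genes of mitochondrial proteins, had 105, 242 and 100 reads at day 0, 85, 146 and 33 after DMSO and 127, 301 and 146 after RTX. All 3 guides were lowest in DMSO and highest in RTX, with a score of 1.16 in RTX over DMSO. OLIG2, a factor of oligodendrocyte and motor neuron development, had 227, 379 and 205 reads at day 0, 289, 397 and 231 after DMSO and 554, 820 and 284 after RTX, with scores of 1.07 in RTX over DMSO and 1.10 in RTX over day 0. OLIG1 stood at 0.72 and NRIP1, a corepressor of nuclear receptors, at 0.53. BACH1, a repressor that heme releases from DNA, was lowest at 0.30 in RTX over DMSO, with 278, 122 and 220 reads at day 0, 514, 197 and 361 after DMSO and 431, 221 and 431 after RTX. Its guides were above day 0 in both cultures. The 7 genes of the BACH and NRF2 axis on other chromosomes showed a median of -0.15 in RTX over DMSO, with KEAP1 highest at 1.07 and BACH2 lowest at -0.64.

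The 4 cytokine receptor genes showed a median of 0.35 in RTX over DMSO, beside 0.77 for the 48. IL10RB, a shared chain of interleukin-10 family receptors, was called higher at 0.51, with 871, 307 and 302 reads at day 0, 732, 338 and 383 after DMSO and 629, 721 and 497 after RTX. It fell below the threshold with a pseudocount of 20 (0.49) and with equal totals (0.49). IFNAR1, a chain of the type I interferon receptor, stood at 0.46 and IFNGR2, a chain of the interferon-gamma receptor, at 0.25. IFNAR2, the other chain of the type I receptor, stood at -0.30, with 391, 122 and 184 reads at day 0, 595, 123 and 265 after DMSO and 379, 102 and 194 after RTX. It was the 1 gene of 46 with 3 guides kept for which all 3 lay below 0 in RTX over DMSO, against 13.5% of such genes over the whole library. In RTX over day 0 IFNAR1, IFNGR2 and IL10RB stood at 0.73, 0.71 and 0.70, near the level of the chromosome, and IFNAR2 at -0.05.

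Of the 5 adhesion and junction genes, 3 were higher. CXADR, the coxsackievirus and adenovirus receptor of tight junctions, led with 0.97, and its guides counted 53, 204 and 160 reads at day 0, 31, 232 and 162 after DMSO and 81, 391 and 292 after RTX. CLDN17 stood at 0.82, NCAM2, a neural adhesion molecule, at 0.58 and CLDN8 at 0.44. JAM2, a junctional adhesion molecule, stood at -0.11, since 2 of its guides counted fewer reads in RTX than in DMSO, 326 against 387 and 497 against 614, and the other had 574 against 362. The 22 claudin and junction genes of other chromosomes showed a median of -0.09 and none was higher, with F11R, the first junctional adhesion molecule, at the top with 0.32. The scores of CXADR, CLDN17, NCAM2 and CLDN8 were thus above all 22. All 5 genes stood between 0.41 and 0.84 in RTX over day 0.

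ADAMTS1 and ADAMTS5, secreted proteases that cleave aggrecan, stood at 1.08 and 0.74 in RTX over DMSO. The ADAMTS1 guides had 325, 380 and 390 reads at day 0, 280, 370 and 415 after DMSO and 241, 716 and 1030 after RTX, so 2 were highest and 1 was lowest in RTX. The 17 members of the ADAMTS family on other chromosomes showed a median of 0.01, from ADAMTS15 at -0.65 to ADAMTS7 at 1.06. TMPRSS15, the enteropeptidase that activates trypsinogen, had the lowest score of the 48, at -0.52. Its guides counted 231, 823 and 240 reads at day 0, 423, 859 and 300 after DMSO and 262, 1678 and 189 after RTX. A single guide was above its DMSO reads while the others were below, and the lower call did not hold with the mean over guides (0.014), with a pseudocount of 20 (-0.49) or with scaling to non-targeting guides (-0.41).

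APP, whose product is cut into the amyloid peptide, was higher in all 3 guides, with 299, 181 and 429 reads at day 0, 475, 229 and 480 after DMSO and 640, 395 and 741 after RTX. Its scores were 0.76 in RTX over DMSO, 0.18 in DMSO over day 0 and 1.08 in RTX over day 0. Other chromosomes hold 9 listed genes of the APP family and its processing, which showed a median of -0.06 in RTX over DMSO, from ADAM10 at -0.84 to APLP1 at 0.59. Of the genes of ubiquitin removal and protein quality, USP16, which removes ubiquitin from histone H2A, stood at 1.05, with all 3 guides highest in RTX (312, 661 and 391 reads at day 0, 293, 545 and 319 after DMSO, 646, 816 and 605 after RTX). HSPA13, a chaperone of the HSP70 family, stood at 0.46 and USP25, another deubiquitinase, at 0.38 over 2 guides of opposite sign.

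Among the signalling genes, 4 of 6 were higher. GRIK1, a kainate-type glutamate receptor subunit, stood at 1.34, with 124, 120 and 214 reads at day 0, 123, 173 and 329 after DMSO and 289, 267 and 967 after RTX. HUNK, a protein kinase, stood at 1.22, with 74, 240 and 535 reads at day 0, 117, 221 and 538 after DMSO and 254, 572 and 841 after RTX. For both genes all 3 guides were highest in RTX, and both scored over 1 in RTX over day 0 as well, at 1.18 and 1.23. BTG3, an antiproliferative protein, and MRAP, which carries the corticotropin receptor to the cell surface, stood at 0.86 and 0.87. SAMSN1, an adaptor of B cells, stood at 0.02. TIAM1, which activates the small GTPase RAC1, had the widest spread among its guides, from -1.22 to 1.80 around 0.25, with 191, 227 and 397 reads at day 0, 242, 171 and 407 after DMSO and 262, 552 and 156 after RTX.

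The vesicle genes ITSN1, a scaffold of endocytosis, and SYNJ1, a phosphoinositide phosphatase of synapses, stood at 0.64 and 0.24 in RTX over DMSO and at 0.50 and 0.62 in RTX over day 0. ITSN1 had 755, 368 and 328 reads at day 0, 755, 487 and 330 after DMSO and 1183, 363 and 469 after RTX. SYNJ1 had 349, 139 and 107, then 502, 132 and 112, then 540, 100 and 370 in the same libraries. In both genes 1 guide went against the others. Their 10 partners on other chromosomes showed a median of 0.14 in RTX over DMSO, from SYNJ2 at -0.68 to DNM2, a dynamin, at 1.30.

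Of the 11 genes, SOD1 among them, that encode enzymes and proteins of other kinds, 8 were higher in RTX over DMSO. TCP10L stood highest at 1.50, and its guides counted 433, 476 and 257 reads at day 0, 547, 572 and 247 after DMSO and 1412, 1240 and 651 after RTX. All 3 were highest in RTX, with log2 ratios to DMSO of 1.25 to 1.52. DNAJC28, of the J-domain family, had 73, 342 and 147 reads at day 0, 164, 365 and 156 after DMSO and 305, 843 and 203 after RTX, with scores of 1.01 in RTX over DMSO and 1.28 in RTX over day 0. TMEM50B, a membrane protein, had the closest agreement of guides, from 0.65 to 0.70. The narrow range of TMEM50B compares with a median range of 0.96 over the 48 genes and 0.97 over all genes.

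N6AMT1, the catalytic part of a methyltransferase that modifies a translation release factor, stood at 1.44 and LIPI, a lipase, at 1.20. CRYZL1, a relative of quinone oxidoreductase, had guides that disagreed, with 58, 71 and 205 reads at day 0, 39, 24 and 198 after DMSO and 22, 43 and 400 after RTX. It stood at 0.85 in RTX over DMSO and, at -0.67, lowest of the 48 in RTX over day 0. RWDD2B was lowest of the 11 at 0.16, with 614, 139 and 62 reads at day 0, 655, 155 and 40 after DMSO and 770, 66 and 41 after RTX. CHODL, a lectin-like protein, stood at 0.55, and C21orf91 and CYYR1 at 0.35 and 0.36.

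Over all 9 partner lists, 103 genes of related function on other chromosomes showed a median of 0.02 in RTX over DMSO and -0.04 in RTX over day 0. Of these, 16.5% were higher in RTX over DMSO, beside 13.0% of all genes, and 68.8% of the 48. In RTX over day 0, 7 of the 103 were higher (6.80%), beside 6.75% of all genes and 30 of the 48. The 103 genes are not matched to the 48, because DNA replication, splicing, ribosome assembly and the mitochondrial ribosome, among other roles, have no list. In DMSO over day 0, 14.6% of the 103 were lower, beside 11.8% of all genes and 22.9% of the 48.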

How the data were processed

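Guide abundance in genomic DNA of 3 NUGC3 cultures, 1 library per condition, was analysed from 3 deposited guide tables, 1 for each pair of libraries. The authors made them with MAGeCK 0.5.7 and the build hg19, per the submitters' processing notes. Tools for assigning reads to guides are not given in the sources used here. Columns, per the file headers, are a control and a treatment value. The deposited values behave as a signal, reads divided by 1 size factor per library within the pair. Whole reads were recovered by dividing by the value of 1 read: in RTX over DMSO and DMSO over day 0, which hold all 3 libraries, at least 99.9984% of values were whole within 0.1. The table of RTX over day 0, where 1 read is worth 1.00264 in RTX and 1.00788 at day 0, is too near 1 for this check, and reads taken from it equalled those of the other tables for every guide. The authors' deposited p-values and q-values (FDR) per guide come from a model over single libraries and served as an alternative.

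Log2 ratios were computed within each pair from the deposited values with a pseudocount of 5, for 62610 guides whose day 0 value reached 10. Such ratios understate changes of sparse guides. Scores are medians over guides, for 20150 genes with at least 2 guides. The 23 date-like names were left out. Every ratio is relative to all guides. The median of the non-targeting guides was -0.10 in RTX over DMSO, 0.19 in DMSO over day 0 and 0.11 in RTX over day 0. Gene order followed RefSeq (GRCh38.p14), whose table placed 19981 scored genes and all 48 genes, 3 through a synonym. Its coordinates are not printed, since the build differs.

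The 48 genes, their roles and the partner lists were chosen with earlier results of these data known. The genes of 2 of the 9 partner lists are not reported here, a choice that did not rest on their values. Their medians in RTX over DMSO, 0.39 and 0.26, were above those of the 7 lists reported, which ran from -0.15 to 0.14, and their genes count in the total over all lists. Named genes were the highest and lowest of each role in RTX over DMSO, the 6 highest and 6 lowest of all 48 there, the 6 lowest in DMSO over day 0 and the 6 highest in RTX over day 0. Other members are named as examples or to account for all 48. Alternatives were pseudocounts of 1 and 20, no filter or one of 50 reads, scaling to non-targeting guides or equal totals, the mean over guides, genes with at least 3 guides, other thresholds, and the authors' FDR. Chosen after the data were examined was edgeR's exact test (version 4.0.16) on these whole reads, its single dispersion estimated over non-targeting guides, and Benjamini-Hochberg adjustment over guides. The scoring was tested on simulated data: with a log2 change of 1 in RTX over DMSO, 94% of 50 genes passed 0.5. With a change of 0.7 it was 76% of 50, and 15.7% of 19950 unchanged genes passed 0.5 or -0.5. The added noise was set by the non-targeting guides in DMSO over day 0, whose standard deviation was 0.53. Theirs in RTX over DMSO was larger, 0.64, so these shares do not carry over directly to that comparison. Python 3.11.15 with pandas 2.3.3 and scipy 1.17.1 was used.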

Additional observations from a re-analysis of the deposited data

How the results depend on the processing

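No paired analysis was possible because each condition is 1 library, and for the same reason no replicate could be left out. Scaling to the non-targeting guides moves the median of all genes to 0.10, -0.19 and -0.11 in RTX over DMSO, DMSO over day 0 and RTX over day 0, and moves the scores of the 48 genes with it. The median of the 48 genes in RTX over DMSO, 0.77, was 0.73 with a pseudocount of 20, 0.75 with a filter of 50 reads, 0.87 scaled to non-targeting guides, 0.75 at equal totals, 0.71 with the mean over guides and 0.58 without the genes lower in DMSO over day 0. In DMSO over day 0 it was -0.27 scaled to non-targeting guides, -0.10 at equal totals and 0.013 without those genes. In RTX over day 0 it was 0.59 with a pseudocount of 20, 0.51 scaled to non-targeting guides, 0.56 at equal totals and 0.71 without those genes. The 16 genes nearest the centromere had RTX over DMSO medians of 0.67 scaled to non-targeting guides, 0.69 with the mean and 0.49 without those genes. The middle 16 had 0.77 with a pseudocount of 20, 0.95 scaled to non-targeting guides, 0.75 with the mean and 0.79 without those genes. The last 16 had 0.85 and 0.66 with pseudocounts of 1 and 20, 0.89 scaled to non-targeting guides, 0.64 with the mean, 0.72 with at least 3 guides and 0.64 without those genes. At a score of 1, 18 genes were higher in RTX over DMSO, 5 lower in DMSO over day 0 and 9 higher in RTX over day 0. The shares of all genes were 2.75%, 3.42% and 0.620%. At a guide threshold of 0.5 the guide counts were 95, 37 and 85, against 60, 19 and 38 at 1. Of all gene-targeting guides, 7.95%, 7.61% and 3.18% passed at 1. Their shares at 0.5 were not computed, so the counts at 0.5 have no background. By the FDR of the authors' deposited tables, 74 guides were higher in RTX over day 0. With edgeR's exact test, run on recovered reads, 5 guides of 142 were higher in RTX over DMSO, beside 0.915% of all guides, 8 lower in DMSO over day 0 (2.07%) and 2 higher in RTX over day 0 (0.180%). The score of TMPRSS15 in RTX over DMSO turned from -0.52 to 0.014 with the mean over guides. Counts of genes at 0.5 stayed within 1.5 times their value under each other setting. Depth limits guides with few reads, such as the SON guide at 0 in DMSO.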

Other observations

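On the centromere side of LIPI, 6 targets were scored, with a median of 0.0010 in RTX over DMSO and 0.09 in RTX over day 0, and 2 of them were higher in the first comparison. TPTE, a phosphatase-like gene of testis, stood at -0.45 in RTX over DMSO and 0.06 in RTX over day 0, and BAGE2, an antigen gene of the same region, at -0.47 and -0.29. The microRNA genes hsa-mir-3648 and hsa-mir-8069 stood at 0.19 and -0.18 in RTX over DMSO, and at -0.60 and 0.11 in RTX over day 0. The other microRNA gene, hsa-mir-3156-3, stood at 0.90 and 0.66. POTED stood at 0.98 in RTX over DMSO and 0.29 in RTX over day 0. Several of these genes have near-identical copies, so their values are uncertain.

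Of the 49 other targets in the interval of the 48 genes, 33 were higher in RTX over DMSO and 0 lower. Over all genes these shares were 13.0% and 9.77%. CCT8, a subunit of the TRiC chaperonin, stood at -0.09 in RTX over DMSO and -0.91 in RTX over day 0, the lowest of all 231 chromosome 21 genes in the second comparison. PAXBP1, a chromatin-linked factor, stood at -0.40 and -0.35. GART, an enzyme of purine synthesis next to SON, stood at 1.27 in RTX over DMSO, -1.66 in DMSO over day 0 and 1.00 in RTX over day 0. These genes were chosen after their values were seen.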
